A study of Mus musculus with 10 samples.

Results

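Neural progenitor-stage cells that had received siRNA against Cbx3 were set directly against cells of the same stage that had received siRNA against Med26, so that the difference between the siRNAs contains no control library. The comparison used 4 of the 10 libraries of the series, 2 with Cbx3 siRNA and 2 with Med26 siRNA, and the 2 libraries of the same stage with a control siRNA against luciferase entered only the estimate of spread. Their levels are given beside the others for many of the named genes, though not for all. All 6 libraries derive from V6.5, a line of mouse embryonic stem cells (ESCs) kept with leukemia inhibitory factor on irradiated fibroblast feeders. Embryoid bodies were grown for 4 days and their cells were plated after dissociation in ITSF medium. The siRNA was given on day 5 and the RNA was harvested on day 8. Levels are RPKM values, which are reads scaled to transcript length in kilobases and to library size in M (mega) mapped reads. A gene was compared if 2 or more of the 6 libraries had it at 1 RPKM or above, which left 11425 of the 24520 genes of the table. Differences are on the log2(RPKM + 1) scale, Cbx3 siRNA minus Med26 siRNA, so that a positive difference is a higher level with Cbx3 siRNA. A gene is said to be higher or lower when its p-value from limma, adjusted over all 11425 genes by the method of Benjamini and Hochberg, was under 0.05.

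Cbx3 encodes HP1 gamma, a chromodomain protein that binds methylated lysine 9 of histone H3 and is found both in heterochromatin and on transcribed genes. Med26 is a subunit of Mediator, which relays signals from transcription factors to RNA polymerase II, and it helps recruit elongation factors to promoters. In the early embryo, Nodal and Wnt signals drive epiblast cells toward the primitive streak and mesoderm, while cells that escape these signals turn on Sox1 and Pax6 and become neural.

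Each siRNA target was lowest in the libraries that had received its siRNA, but Cbx3 RNA lay further below its control level than Med26 RNA did. The part of this inequality in the differences was not tested. Cbx3 RNA was 0.425 and 0.249 RPKM in Cbx3 siRNA cells, against 7.87 and 7.93 RPKM in Med26 siRNA cells. Control cells had 9.37 and 9.65 RPKM. Both Cbx3 siRNA libraries lay far below the other 4, a difference of -2.74 (standard error 0.09, adjusted p = 3.41e-05). Med26 RNA was 7.42 and 6.35 RPKM in Cbx3 siRNA cells and 3.04 and 3.07 RPKM in Med26 siRNA cells. Control cells had 7.56 and 6.78 RPKM, so that only the Med26 siRNA libraries stood apart (difference 0.96, standard error 0.09, adjusted p = 0.000982). Named pseudogene copies of Cbx3 exist, 6 by symbol, and could take reads from it. The genes of the other HP1 proteins did not pass the test: Cbx1 had 60.7 and 58.9 RPKM in Cbx3 siRNA cells and 59.5 and 62.7 RPKM in Med26 siRNA cells. Cbx5 had 71.1 and 70.7 RPKM with Cbx3 siRNA against 69.9 and 66.1 RPKM with Med26 siRNA (adjusted p = 0.758 for Cbx1 and 0.491 for Cbx5).

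The libraries rest on about 45.7 and 46.9 M reads with Cbx3 siRNA, 54.8 and 63.7 M with Med26 siRNA and 53.8 and 55 M with control siRNA, estimated from the steps between low RPKM values. Replicates correlated at 0.995 to 0.996 over the genes tested, against 0.982 to 0.986 between Cbx3 and Med26 siRNA libraries, and the first principal component, with 42.9% of the variance, placed the control libraries between those of the siRNA groups. The second component, with 33.4%, placed both siRNA groups on one side and both control libraries on the other. The neural progenitor label (NPC) is used here as a name: its defining markers Pax6, Sox1, Sox2 and Nes were all present, while the pluripotency factor Pou5f1 was still at 380 to 497 RPKM in the 6 libraries and the neuron marker Dcx was at most 0.0243 RPKM. ESC libraries with control siRNA also held Sox2 (131 and 72.1 RPKM) and Sox1 (5.52 and 5.50 RPKM). Pax6 (0.704 and 2.07 RPKM) and Nes (6.35 and 15.4 RPKM) were lower there than in NPC control libraries. Of the defining markers of other cell types, Sox17, Gata6, Foxa2, Tnnt2, Krt5, Trp63, Elf5 and Ptprc were at most 0.286 RPKM in every library, and Cdx2, Sox10 and Mixl1 at most 0.816 RPKM. Others were present, such as Actc1 of muscle (12.9 to 16.1 RPKM over the 6 libraries), Twist1, Col1a1, Thy1 and Pecam1 (0.913 to 4.04 RPKM), and the lists of these cell types hold abundant genes. The muscle list summed to 522 and 543 RPKM with Cbx3 siRNA, 656 and 707 RPKM with Med26 siRNA and 394 and 388 RPKM with control siRNA. The list of epidermis and simple epithelium, which holds Krt8 and Krt18, summed to 1026 and 1055 RPKM with Cbx3 siRNA, 904 and 929 RPKM with Med26 siRNA and 648 and 656 RPKM with control siRNA. The endoderm list was at 219.8 to 261 RPKM over the 6 libraries. In bulk RNA, fewer cells of a type and less RNA per cell cannot be told apart. With n = 2 per group, a p-value reflects nothing beyond the spread among these libraries, which the labels call biological replicates without saying what they shared.

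In all, 2329 genes (20.4% of those tested) differed between the siRNAs. Of these, 1340 (11.7%) were higher and 989 (8.66%) were lower in Cbx3 siRNA cells than in Med26 siRNA cells. Most differences were small, with a median size of 0.41, and 68 genes reached a difference of 1, 50 of them higher and 18 lower. The Cbx3 and Med26 siRNA libraries did not overlap in any of the 2329 genes, nor in 62.4% of all genes tested. Leaving out 1 siRNA library leaves 1 library in its group, so fewer calls are expected whichever library is left out. A call lost in such a fit, here and below, does not show that the difference rests on that library. Genes called both in such a fit and with all 6 libraries kept their sign. In a fit that also held the 4 ESC libraries, 128 genes passed, all among the 2329. That fit has the same differences but takes its spread from the ESC libraries too, whose replicates differed widely. Libraries with the same replicate number deviated together, and with that number as a block 4541 of the 11425 genes passed, 2514 higher and 2027 lower. More calls in a list with the block thus go with more calls over all genes. Every list count is to be read beside 11.7% higher and 8.66% lower, or with the block beside 2514 and 2027 of 11425. Counts of list genes with the replicate block stand beside those without it where they differ by more than 1.5 times. The filter let 81 genes in through the Cbx3 siRNA libraries alone, 53 of them called higher, and 33 through the Med26 siRNA libraries alone, 10 of them called lower. The siRNA libraries of such genes could not overlap, so the direction was fixed in advance, though not all of them passed the threshold.

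**Figure D1:**
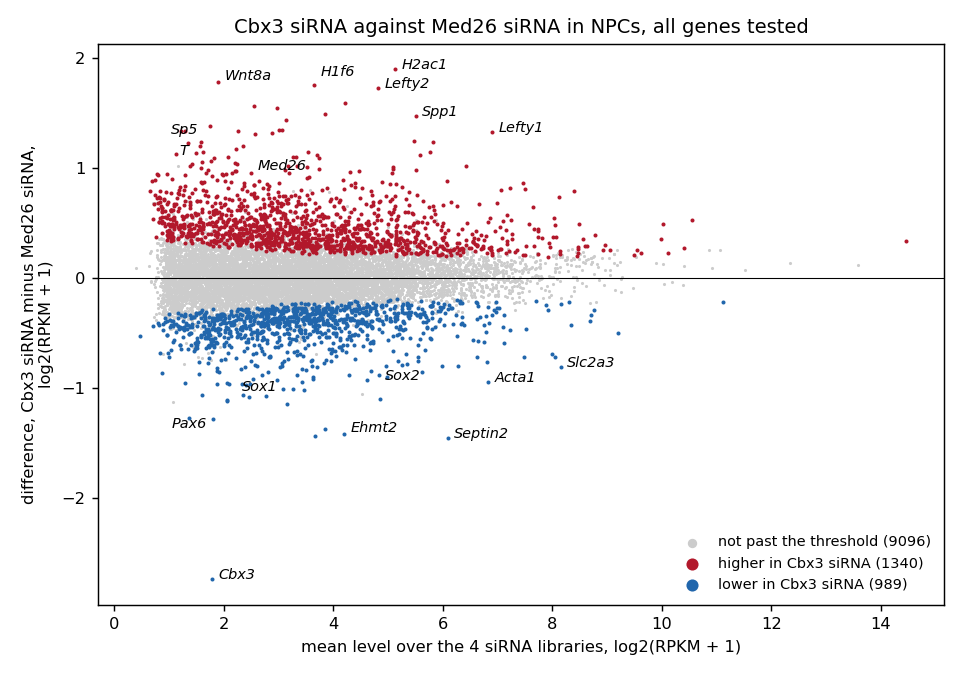
Difference between Cbx3 siRNA and Med26 siRNA (vertical axis, log2(RPKM + 1)) against the mean level over the 4 siRNA libraries (horizontal axis, same scale) for the 11425 genes tested, 1 point a gene. Red points are the 1340 genes higher and blue points the 989 genes lower in Cbx3 siRNA cells. Cbx3, at -2.74, has the lowest difference, and Lefty2, H2ac1, Wnt8a and H1f6 lie at the top.

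Genes of the Nodal and Wnt pathways and of the primitive streak were among the largest positive differences. Lefty2, a secreted Nodal inhibitor that Nodal itself induces, had 47.9 and 52.5 RPKM in Cbx3 siRNA cells, against 14.1 and 14.7 RPKM in Med26 siRNA cells. Control cells had 27.4 and 27.8 RPKM. Its 3 groups were fully separated, with Cbx3 siRNA above and Med26 siRNA below control (difference 1.73, standard error 0.07, adjusted p = 4.29e-05). Lefty1, its close relative, had 176 and 201 RPKM in Cbx3 siRNA cells and 72.2 and 76.6 RPKM in Med26 siRNA cells (difference 1.32, adjusted p = 0.000186). Here the control cells, at 182 and 197 RPKM, overlapped the Cbx3 siRNA cells, and only the Med26 siRNA cells stood apart. Nodal, the ligand, had 49.8 RPKM in both Cbx3 siRNA libraries, against 31.4 and 33.6 RPKM with Med26 siRNA (difference 0.60, adjusted p = 0.0011). Its control cells lay in between, at 42.96 and 41.4 RPKM. Fst, which encodes the activin-binding antagonist follistatin, had 7.95 and 8.80 RPKM in Cbx3 siRNA cells and 2.87 and 2.70 RPKM in Med26 siRNA cells, with the control cells in between at 5.25 and 5.83 RPKM (difference 1.31, adjusted p = 0.000255). Of 19 tested genes of the Nodal and BMP pathways, 6 were higher and 2 were lower, with a median of 0.09 against 0.01 over all genes. Id2, a BMP-responsive inhibitor of helix-loop-helix factors, went the other way (difference -0.69, limma adjusted p = 0.000929). It had 29.3 and 32.4 RPKM in Cbx3 siRNA cells and 50.5 and 50.4 RPKM in Med26 siRNA cells. Control cells, at 26.9 and 27.3 RPKM, lay below both siRNA groups. The calls of 4 of the 6 higher genes (Lefty2, Lefty1, Fst and Nodal) and of Id2 held without any 1 of the 6 libraries.

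Among Wnt ligands, Wnt8a had 5.14 and 6.74 RPKM in Cbx3 siRNA cells, against 1.25 and 0.785 RPKM in Med26 siRNA cells (difference 1.78, adjusted p = 0.000451). Control cells had 3.42 and 3.57 RPKM. Wnt3, the ligand needed for streak formation in the mouse, had 7.90 and 7.03 RPKM with Cbx3 siRNA and 3.93 and 3.28 RPKM with Med26 siRNA. Wnt5b had 3.09 and 3.05 RPKM with Cbx3 siRNA against 1.35 and 1.33 RPKM with Med26 siRNA. Their differences were 0.88 and 0.80 (adjusted p = 0.00149 and 0.00152). For Wnt8a and Wnt3 the control libraries lay between the siRNA groups, and for Wnt5b they lay above both. Of the genes that Wnt signalling induces, Sp5, a zinc finger factor, had 3.46 and 3.78 RPKM in Cbx3 siRNA cells and 1.04 and 0.875 RPKM in Med26 siRNA cells (difference 1.24, adjusted p = 0.000387). Sp5 in control cells was 1.38 and 1.28 RPKM, close to the Med26 siRNA cells. Axin2, a feedback inhibitor of the pathway, had 4.72 and 4.23 RPKM with Cbx3 siRNA against 2.67 and 2.91 RPKM with Med26 siRNA (difference 0.53, adjusted p = 0.00711), a call that was lost without Med26 siRNA replicate 1 (0.49, adjusted p = 0.0552). T, the brachyury gene that marks the streak and early mesoderm, had 2.76 and 3.62 RPKM in Cbx3 siRNA cells and 0.990 and 0.805 RPKM in Med26 siRNA cells (difference 1.14, adjusted p = 0.0012). Both control libraries had 2.21 RPKM. Fgf8, a streak-expressed growth factor, had 3.62 and 5.40 RPKM with Cbx3 siRNA and 1.14 and 1.04 RPKM with Med26 siRNA (difference 1.38, adjusted p = 0.00217). Its control cells, at 5.27 and 4.00 RPKM, overlapped the Cbx3 siRNA cells. In the Wnt list 6 of 18 tested genes were higher and 1 was lower (5 lower with the replicate block), with a median of 0.04. Of the 5 tested streak and mesoderm genes Wnt3, T and Fgf8 were higher and none was lower, with a median of 0.88. The list is mostly silent here: over its 21 genes without the filter 4 were higher and 1 lower, with a median of 0.12. The other 2 tested genes, Eomes and Gata4, had differences of 0.20 and 0.35 that did not pass (adjusted p = 0.187 and 0.114), although Gata4 passed with the replicate block (adjusted p = 0.0137). Wnt6 (0.57) was also higher, though not without Med26 siRNA replicate 1 (0.50, adjusted p = 0.0552). The receptor gene Fzd7 (-0.59) was lower, and both are named after their values were seen. Lefty2, Lefty1, Fst, Wnt8a, Sp5, T and Fgf8 also passed in the fit of all 10 libraries.

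The promoters of the 2 Wnt target genes T and Sp5 are shown because TCF factors, which carry the Wnt signal to DNA, recognise the letters CTTTGAA or CTTTGAT. Each is the RefSeq promoter of GRCm38.p6, from 250 bases before to 50 after the start, printed 5′ to 3′ on the gene's strand with the match in capitals (for T the reverse complement). T lies at chr17:8434173-8434472 and Sp5 at chr2:70474673-70474972, both on the plus strand.
T: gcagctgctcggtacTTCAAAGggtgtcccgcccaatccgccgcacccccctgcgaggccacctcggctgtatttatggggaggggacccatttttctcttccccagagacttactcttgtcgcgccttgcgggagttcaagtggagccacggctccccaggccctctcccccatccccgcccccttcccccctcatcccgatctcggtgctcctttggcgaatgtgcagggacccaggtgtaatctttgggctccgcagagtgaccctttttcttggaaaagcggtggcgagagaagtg
Sp5: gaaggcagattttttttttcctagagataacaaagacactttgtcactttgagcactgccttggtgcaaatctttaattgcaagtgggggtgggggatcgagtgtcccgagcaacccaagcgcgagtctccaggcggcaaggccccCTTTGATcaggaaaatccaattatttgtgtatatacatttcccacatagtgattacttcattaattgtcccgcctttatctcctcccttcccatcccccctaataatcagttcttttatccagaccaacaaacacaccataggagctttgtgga
On both strands, 8.65% of 32851 RefSeq promoters of this length hold 1 of these motifs, as do 6.65% of tested genes with a promoter. In the Wnt list 2 of the 13 tested genes with a promoter hold it (15.4%), both among the 5 higher ones. A match describes letters in this window and shows no binding.

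Pax6, Sox1 and Sox2, genes of neural progenitors, had the opposite sign. Pax6, the paired box factor of neuroectoderm, had 1.36 and 1.12 RPKM in Cbx3 siRNA cells, against 4.33 and 4.53 RPKM in Med26 siRNA cells (difference -1.28, standard error 0.09, adjusted p = 0.000286). Control cells had 3.39 and 3.42 RPKM. Sox1, the earliest marker of committed neuroectoderm, had 5.23 and 4.71 RPKM with Cbx3 siRNA and 11.5 and 10.6 RPKM with Med26 siRNA (difference -1.01, adjusted p = 0.000619). Its control level was 9.22 and 8.29 RPKM. Sox2, which serves both pluripotent and neural progenitor cells, had 19.1 and 20.9 RPKM with Cbx3 siRNA against 36.7 and 38.5 RPKM with Med26 siRNA, with 29.6 and 29.9 RPKM in control cells (difference -0.88, adjusted p = 0.000387). In all 3 genes the libraries of the 3 groups were fully separated, with Cbx3 siRNA lowest and Med26 siRNA highest. Of 18 tested genes of the neural progenitor list, 8 were lower and 2 were higher (median -0.36), beside 8.66% and 11.7% of all genes. With the replicate block 14 were lower, and over all 35 genes of the list without the filter 6 were lower and 1 higher (median -0.05). The lower ones included the intermediate filament gene Nes (30.0 and 31.7 RPKM with Cbx3 siRNA, 38.8 and 40.4 RPKM with Med26 siRNA, difference -0.35) and the forebrain factor Otx2 (11.8 and 10.8 RPKM with Cbx3 siRNA against 17.5 and 15.98 RPKM with Med26 siRNA, difference -0.54). Nes lost its call without Cbx3 siRNA replicate 1 (-0.31) or Med26 siRNA replicate 2 (-0.32), and Otx2 without Med26 siRNA replicate 1 (-0.47). These sizes are near those with all 6 libraries. Pax6, Sox1 and Sox2 held without any 1 library, and Sox1 also passed in the fit of all 10. The higher members were the adhesion molecule gene Ncam1 (0.47) and the oligodendrocyte and motor neuron factor Olig2 (0.50), named after their values were seen. Ncam1, which passed the filter through the Cbx3 siRNA libraries alone, lost its call without any 1 of the 4 siRNA libraries (0.37 to 0.56), and Olig2 lost it without Cbx3 siRNA replicate 1 (0.37), Med26 siRNA replicate 2 (0.33) or either control library (0.50). Of 4 tested glia genes 3 were lower (median -0.42), and over the 14 genes of that list without the filter 1 was lower (median 0.01). With the replicate block 1 of the 4 was higher. The glutamate transporter gene Slc1a3 had 3.68 and 3.40 RPKM in Cbx3 siRNA cells and 6.90 and 6.82 RPKM in Med26 siRNA cells (difference -0.79, adjusted p = 0.00143), and its call alone of the 3 held without any 1 library. Neuron genes split, with Stmn2 higher (0.50, adjusted p = 0.00291) and Tubb3 and Elavl2 lower among 9 tested (median -0.05), or 3 higher and 3 lower with the replicate block. Tubb3 (-0.32) lost its call without Cbx3 siRNA replicate 1 or either Med26 siRNA library (-0.34 to -0.22), and Elavl2 (-0.46) lost it without Cbx3 siRNA replicate 2 or Med26 siRNA replicate 1 (-0.46 and -0.38).

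**Figure D2:**
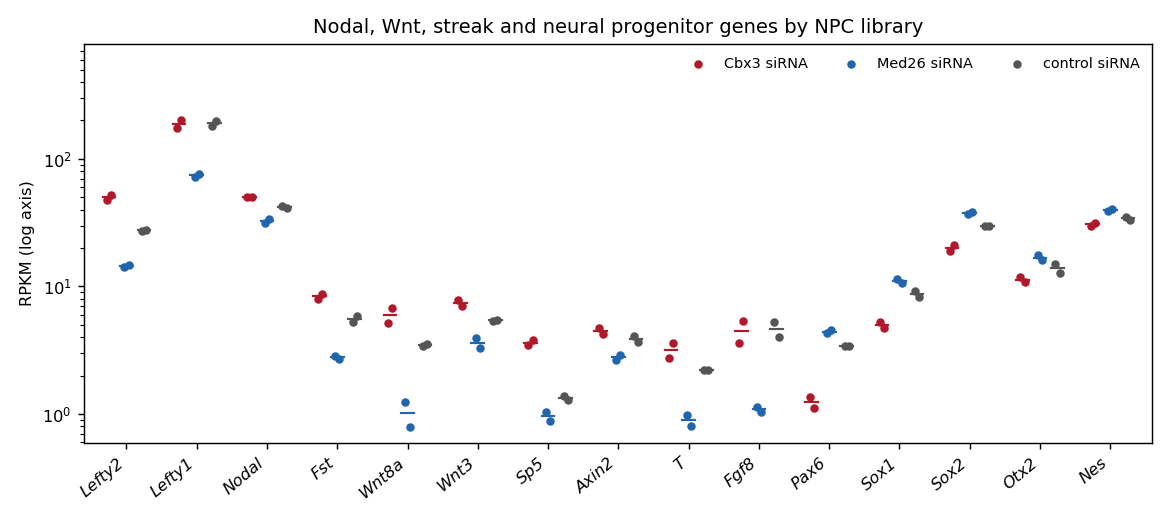
RPKM (log axis) of 10 Nodal, Wnt and streak genes and 5 neural progenitor genes in each NPC library, 1 point a library, with a bar at the mean of the 2 libraries of a group. Red is Cbx3 siRNA, blue Med26 siRNA and grey control siRNA. Lefty2, Wnt8a and Sp5 are highest with Cbx3 siRNA and lowest with Med26 siRNA, and Pax6, Sox1 and Sox2 show the reverse order.

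Of 13 tested genes of the primed epiblast, 6 were lower with Cbx3 siRNA than with Med26 siRNA and none higher (median -0.43). Of these calls 2 held without any 1 library, and with the replicate block 11 genes were lower. Dnmt3b, the main de novo DNA methyltransferase of this stage, had 200 and 210 RPKM in Cbx3 siRNA cells and 329 and 348 RPKM in Med26 siRNA cells (difference -0.72, adjusted p = 0.00053). Its control cells, at 346 and 350 RPKM, lay close to the Med26 siRNA cells. Sall2, a zinc finger factor, had 9.20 and 7.81 RPKM with Cbx3 siRNA and 16.04 and 13.8 RPKM with Med26 siRNA (difference -0.75, adjusted p = 0.00573). In the naive pluripotency list 5 of 11 were lower and none higher (median -0.36), and 2 of the calls held without any 1 library. The orphan nuclear receptor gene Nr0b1 had 1.11 and 1.12 RPKM with Cbx3 siRNA against 3.61 and 3.21 RPKM with Med26 siRNA (difference -1.06, adjusted p = 0.000929). Fgf4, a growth factor gene, had 45.4 and 48.0 RPKM with Cbx3 siRNA against 65.0 and 64.1 RPKM with Med26 siRNA (difference -0.46, adjusted p = 0.00312). For both genes the control cells resembled the Cbx3 siRNA cells, with 1.29 and 1.60 RPKM for Nr0b1 and 45.6 and 48.5 RPKM for Fgf4. Of 16 core pluripotency genes 8 were lower and 4 higher (median -0.29). Of these calls, those of Sox2 and, among the higher genes, Trim71 (61.6 and 56.6 RPKM with Cbx3 siRNA, 36.6 and 32.8 RPKM with Med26 siRNA) held without any 1 library. Pou5f1 had 380 and 405 RPKM with Cbx3 siRNA and 467 and 495 RPKM with Med26 siRNA (difference -0.29, adjusted p = 0.018), which did not pass without Cbx3 siRNA replicate 1 (-0.25, adjusted p = 0.088), Med26 siRNA replicate 1 (-0.33, adjusted p = 0.0605) or Med26 siRNA replicate 2 (-0.25, adjusted p = 0.11). Nanog had 20.2 and 18.4 RPKM in Cbx3 siRNA cells and 18.1 and 18.6 RPKM in Med26 siRNA cells, which overlapped (adjusted p = 0.513).

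The control libraries show on which side of the unperturbed level each gene of the direct difference lay. For 1538 of the 2329 genes (66.0%) the control mean was between the Cbx3 and Med26 siRNA means, against 36.9% of all genes tested. In 731 of them control was nearer to Med26 siRNA and in 807 nearer to Cbx3 siRNA. In another 420 genes control lay beyond the Med26 siRNA mean, and in 371 it lay beyond the Cbx3 siRNA mean. With the stricter reading that every control library lies between every Cbx3 and Med26 siRNA library, the share was 41.9% (975 genes), against 11% of all genes. Among the 68 genes with a difference of at least 1, control was in between in 55 (80.9%). Genes whose siRNA means lie further apart leave more room for a value in between, and what that adds to these shares was not tested.

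**Figure D3:**
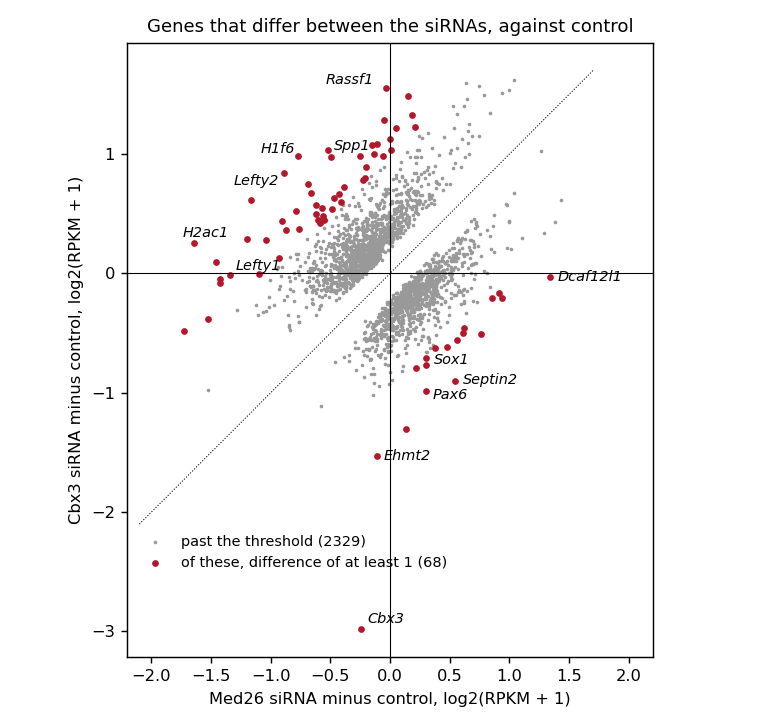
Cbx3 siRNA minus control (vertical axis) against Med26 siRNA minus control (horizontal axis), both on the log2(RPKM + 1) scale, for the 2329 genes that differ between the siRNAs, with the 68 genes of a difference of at least 1 in red. Both axes share the control libraries, so the axes are not independent. Points in the upper left and lower right, such as Lefty2 and Septin2, have opposite signs, while Rassf1 and Ehmt2 lie near 0 on the horizontal axis and Lefty1 and Dcaf12l1 near 0 on the vertical axis.

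Genes of glycolysis and of the hypoxia response were the list with the most lower calls. Of 30 tested, 17 were lower and 2 higher in Cbx3 siRNA cells than in Med26 siRNA cells (median -0.33, between -0.42 and -0.31 over 15 alternative settings), and 12 of the lower calls held without any 1 library. Their summed level was 2201 and 2355 RPKM in Cbx3 siRNA cells and 2955 and 3135 RPKM in Med26 siRNA cells, with 2590 and 2726 RPKM in control cells. Bnip3, a mitochondrial autophagy gene and target of hypoxia-inducible factor, had 2.58 and 3.06 RPKM with Cbx3 siRNA and 6.51 and 6.43 RPKM with Med26 siRNA (difference -0.97, standard error 0.10, adjusted p = 0.000982). Control cells lay in between at 4.71 and 5.36 RPKM. Pdk1, the kinase that turns off pyruvate dehydrogenase, had 17.4 and 18.98 RPKM with Cbx3 siRNA against 32.5 and 34.4 RPKM with Med26 siRNA (difference -0.85, adjusted p = 0.00054). Its control cells, at 34.6 and 36.9 RPKM, were slightly above the Med26 siRNA cells. Slc2a3, a glucose transporter gene, had 216 and 213 RPKM in Cbx3 siRNA cells and 384 and 370 RPKM in Med26 siRNA cells (difference -0.81, adjusted p = 0.000284), and here the control cells (218 and 211 RPKM) overlapped the Cbx3 siRNA cells. P4ha1, a collagen prolyl hydroxylase gene, had 5.52 and 5.66 RPKM with Cbx3 siRNA against 9.91 and 10.3 RPKM with Med26 siRNA, with 6.11 and 6.38 RPKM in control cells (difference -0.75, adjusted p = 0.000907). Glycolytic enzymes were also lower. Tpi1 had 134 and 145 RPKM in Cbx3 siRNA cells and 219 and 241 RPKM in Med26 siRNA cells (difference -0.72, adjusted p = 0.00187). Aldoa had 469 and 523 RPKM with Cbx3 siRNA against 667 and 735 RPKM with Med26 siRNA, and Ldha had 270 and 289 RPKM with Cbx3 siRNA against 367 and 384 RPKM with Med26 siRNA (differences -0.50 and -0.42, adjusted p = 0.00659 and 0.00508). The 2 higher genes were Egln1 and Hk1. Egln1, the oxygen-sensing prolyl hydroxylase that marks hypoxia-inducible factor for breakdown, had 12.8 and 13.3 RPKM with Cbx3 siRNA against 6.33 and 7.85 RPKM with Med26 siRNA (difference 0.80, adjusted p = 0.00337). Hk1, a hexokinase gene, differed by 0.48, a call lost without Med26 siRNA replicate 1 (0.45, adjusted p = 0.0592). Tpi1, Aldoa, Ldha, Egln1 and Hk1 are named after their values were seen. Genes of oxidative phosphorylation, the other branch of energy supply, had no call by limma among 34 tested (median 0.03), with 2 positive and 4 negative at an unadjusted p under 0.05. With the replicate block 9 of them were higher and 6 lower.

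**Figure D4:**
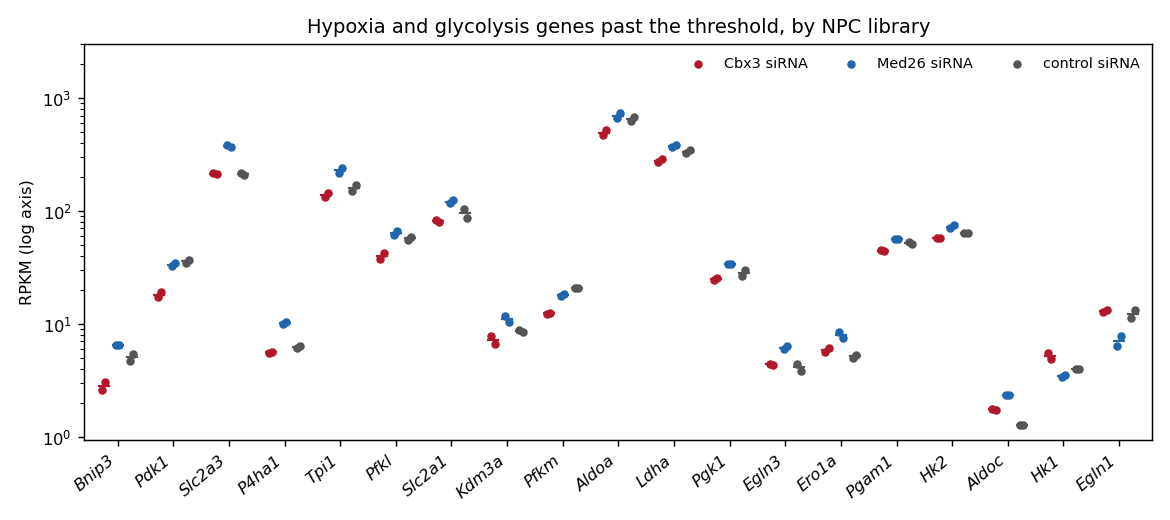
RPKM (log axis) in each NPC library of the 19 hypoxia and glycolysis genes that differ between the siRNAs, 1 point a library, with a bar at the group mean. Red is Cbx3 siRNA, blue Med26 siRNA and grey control siRNA. The 17 genes on the left are lower with Cbx3 siRNA than with Med26 siRNA, Hk1 and Egln1 on the right are higher, and the control libraries take different positions from gene to gene.

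Hypoxia-inducible factor binds sites with the core ACGTG, and the promoters of P4ha1 and Bnip3 are shown with that core in capitals. P4ha1 lies at chr10:59323046-59323345 on the plus strand and has 1 match, written as its reverse complement. Bnip3 lies at chr7:138909457-138909756 on the minus strand and has 2 overlapping matches, 1 on each strand (RefSeq, GRCm38.p6, printed 5′ to 3′ on the gene's strand).
P4ha1: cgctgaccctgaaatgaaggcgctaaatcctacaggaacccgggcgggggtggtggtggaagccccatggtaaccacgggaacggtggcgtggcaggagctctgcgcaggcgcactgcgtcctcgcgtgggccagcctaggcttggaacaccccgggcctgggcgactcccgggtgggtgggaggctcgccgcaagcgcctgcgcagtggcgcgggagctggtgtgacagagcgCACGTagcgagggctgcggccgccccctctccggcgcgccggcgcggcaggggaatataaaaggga
Bnip3: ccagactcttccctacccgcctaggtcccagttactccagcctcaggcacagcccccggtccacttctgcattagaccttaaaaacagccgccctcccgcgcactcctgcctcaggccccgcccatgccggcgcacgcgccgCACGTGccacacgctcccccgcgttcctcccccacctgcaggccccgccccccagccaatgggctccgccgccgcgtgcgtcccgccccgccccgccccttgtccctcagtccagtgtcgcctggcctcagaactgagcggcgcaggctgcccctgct
The core is short and common: 19.6% of 32851 promoters and 30.3% of tested genes with a promoter hold it on either strand. In the list it was found for 12 of the 16 lower genes with a promoter in the table (75%) and for 20 of all 27 tested ones (74.1%), both higher genes included.

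FGF signalling genes were lower in 9 of 20 and higher in 2 (median -0.16). The receptor gene Fgfr2 had 2.076 and 2.49 RPKM in Cbx3 siRNA cells and 4.09 and 3.86 RPKM in Med26 siRNA cells (difference -0.60, adjusted p = 0.00536). The feedback inhibitor Spred1 had 18.3 and 18.2 RPKM with Cbx3 siRNA against 24.6 and 23.9 RPKM with Med26 siRNA (difference -0.39, adjusted p = 0.00519). Control cells had 15.1 and 14.6 RPKM for Spred1, below both siRNA groups, and 2.87 and 3.05 RPKM for Fgfr2, in between. Fgf8 and the ETS factor gene Etv4 (0.27) were the higher members, and Etv4 lost its call without any 1 of the 6 libraries (0.20 to 0.34). Of the G1 regulators, the cyclin D genes Ccnd1 (58.2 and 57.8 RPKM with Cbx3 siRNA, 97.4 and 106 RPKM with Med26 siRNA) and Ccnd2 (3.12 and 3.31 RPKM with Cbx3 siRNA against 6.98 and 6.93 RPKM with Med26 siRNA) were lower, with differences of -0.80 and -0.92 and adjusted p of 0.000404 and 0.000828. The cyclin-dependent kinase inhibitor genes Cdkn1a (15.5 and 14.5 RPKM with Cbx3 siRNA against 8.29 and 8.43 RPKM with Med26 siRNA) and Cdkn2b (4.32 and 4.47 RPKM with Cbx3 siRNA against 2.57 and 2.50 RPKM with Med26 siRNA) were higher, with differences of 0.77 and 0.61 and adjusted p of 0.00266 and 0.00348. Control cells resembled the Cbx3 siRNA cells for Cdkn1a (17.5 and 14.1 RPKM) and the Med26 siRNA cells for Cdkn2b (2.56 and 2.28 RPKM). For Ccnd1 the control cells lay in between (82.1 and 85.7 RPKM), and for Ccnd2 near the Med26 siRNA cells (7.48 and 6.58 RPKM). In all, 2 of 20 G1 genes were higher and 4 lower (median 0.06), and genes of S and M phase had 5 higher and 1 lower of 33 (median 0.04), or 11 and 3 with the replicate block.

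Interferon and MHC class I genes were higher in 11 of 22 and lower in 1 (median 0.29), and 5 of the higher calls held without any 1 library. The list has 34 genes, and its untested members were too low for the filter. Among them, Ifit1, Ifit3, Rsad2, Usp18 and Irf7 were at most 0.211 RPKM and Isg15 at most 0.847 RPKM in the 6 libraries. Gbp2, an interferon-induced GTPase, had 20.3 and 21.3 RPKM in Cbx3 siRNA cells and 12.1 and 12.97 RPKM in Med26 siRNA cells (difference 0.69, adjusted p = 0.00167), with 8.38 and 9.33 RPKM in control cells. Irf1, a transcription factor of the interferon response, had 21.8 and 21.98 RPKM with Cbx3 siRNA against 13.3 and 14.4 RPKM with Med26 siRNA (difference 0.63, adjusted p = 0.00145). Psmb8, an immunoproteasome subunit, had 6.85 and 7.76 RPKM with Cbx3 siRNA against 4.09 and 4.51 RPKM with Med26 siRNA (difference 0.65, adjusted p = 0.0033). Gbp2 was above control in both siRNA groups, while for Irf1 and Psmb8 the control mean lay between. Ifitm2 was the lower member (-0.45, adjusted p = 0.00291). Among p53 targets 8 of 27 were higher and 1 lower (3 lower with the replicate block, median 0.18). Phlda3, the gene of an Akt inhibitor, had 44.4 and 49.98 RPKM in Cbx3 siRNA cells and 22.95 and 23.4 RPKM in Med26 siRNA cells, with 45.1 and 45.4 RPKM in control cells (difference 0.99, adjusted p = 0.000287). Phlda3 and Cdkn1a, the 2 p53 targets whose calls held without any 1 library, had control levels like those with Cbx3 siRNA, so that the Med26 siRNA cells were the ones that stood apart. Of 34 genes of the integrated stress response 5 were higher and 2 lower (median 0.12), or 14 and 5 with the replicate block. Nupr1, a stress-induced nuclear protein gene, had 13.4 and 11.6 RPKM with Cbx3 siRNA against 3.27 and 3.96 RPKM with Med26 siRNA (difference 1.55, adjusted p = 0.000255). Asns, asparagine synthetase, had 245 and 256 RPKM with Cbx3 siRNA against 185 and 181 RPKM with Med26 siRNA (difference 0.45, adjusted p = 0.00357). Ribosomal protein genes were positive in 35 of 38 with small sizes, 7 higher and 1 lower (median 0.21), or 27 and 1 with the replicate block. The list median stayed between 0.16 and 0.23 over 15 alternative settings. Only the call of Rps19 held without any 1 library. Rps19 had 38.8 and 41.1 RPKM with Cbx3 siRNA against 30.0 and 28.8 RPKM with Med26 siRNA. Many ribosomal protein genes have pseudogene copies that can share reads.

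Epithelial and cytoskeletal genes differed in both directions. Krt8 had 168 and 183 RPKM in Cbx3 siRNA cells, against 114 and 121 RPKM in Med26 siRNA cells, with 59.4 and 62.6 RPKM in control cells (difference 0.57, adjusted p = 0.00191). Its partner in simple epithelium, Krt18, had 303 and 326 RPKM with Cbx3 siRNA against 210 and 221 RPKM with Med26 siRNA, with 132 and 141 RPKM in control cells. Krt7 had 9.08 and 9.83 RPKM with Cbx3 siRNA against 4.95 and 5.18 RPKM with Med26 siRNA, with 3.05 and 2.84 RPKM in control cells. The differences were 0.54 for Krt18 and 0.79 for Krt7 (adjusted p = 0.00235 and 0.0011). For these 3 keratins both siRNA groups were above control, the Cbx3 siRNA group further. In the list of epidermis and simple epithelium 6 of 15 were higher and 2 lower (median 0.20, or 0 over its 26 genes without the filter). Krt14, among the 6, passed the filter through the Cbx3 siRNA libraries alone. The 3 higher genes of the trophoblast list (11 tested, median 0.20) are the same 3 keratins, and 5 were higher with the replicate block. Epithelial junction genes were higher in 4 of 29 and lower in 6 (median -0.07). The desmosomal gene Pkp3 was higher, with 5.89 and 6.31 RPKM in Cbx3 siRNA cells and 3.10 and 3.11 RPKM in Med26 siRNA cells (difference 0.79, adjusted p = 0.00163). All 6 called genes of the S100, annexin and galectin list were higher, of 17 tested (median 0.23), and with the replicate block 10 were higher and 1 lower. S100a6, a calcium-binding protein gene, had 90.7 and 90.5 RPKM in Cbx3 siRNA cells and 49.2 and 48.6 RPKM in Med26 siRNA cells, with 33.2 and 34.0 RPKM in control cells (difference 0.88, adjusted p = 0.000203). Lgals1, galectin 1, had 232 and 243 RPKM with Cbx3 siRNA against 125 and 136 RPKM with Med26 siRNA, with 137 and 146 RPKM in control cells (difference 0.86, adjusted p = 0.000387).

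Among actins, the smooth muscle gene Acta2 had 43.6 and 43.2 RPKM in Cbx3 siRNA cells and 24.2 and 22.9 RPKM in Med26 siRNA cells (difference 0.86, adjusted p = 0.000286). The skeletal muscle gene Acta1 had 77.5 and 83.6 RPKM with Cbx3 siRNA and 155 and 158 RPKM with Med26 siRNA (difference -0.95, adjusted p = 0.000207). Both were lower in control cells, at 18.7 and 18.5 RPKM for Acta2 and 59.8 and 59.0 RPKM for Acta1, so that both siRNA groups lay above control for both genes. The actin and SRF list had 3 higher and 5 lower of 25 (median -0.15), or 5 and 15 with the replicate block, and Actg2, among the higher ones, passed the filter through the Cbx3 siRNA libraries alone. The muscle list had 5 higher and 3 lower of 10 (median 0.32), and the median turned to -0.30 over the 4 genes with a mean of at least 5 RPKM, 1 higher and 3 lower. Matrix genes were higher in 6 of 28 and lower in 2 (median -0.02), or 11 and 5 with the replicate block. Spp1, the gene of osteopontin, had 72.1 and 77.8 RPKM in Cbx3 siRNA cells, against 25.1 and 27.7 RPKM in Med26 siRNA cells, with 35.9 and 39.2 RPKM in control cells (difference 1.47, adjusted p = 9.2e-05). The collagen genes Col5a1 and Col5a2 were also higher (0.54 and 0.75). Col6a2 (0.78) had 1.702 and 1.705 RPKM with Cbx3 siRNA, 0.509 and 0.652 RPKM with Med26 siRNA and 0.733 and 0.804 RPKM in control cells. It thus passed the filter through the Cbx3 siRNA libraries alone, which fixed its direction in advance. The 3 collagen genes belong to the list of feeder fibroblast genes too, of which 5 of 13, Col6a2 included, were higher and none lower (median 0.31), or 8 and 1 with the replicate block. Over the 3 genes of that list with a mean of at least 5 RPKM, 1 was higher and the median turned to -0.05. The summed level of that list was 112 and 106 RPKM in Cbx3 siRNA cells and 108 and 101 RPKM in Med26 siRNA cells, with 77.2 and 70.4 RPKM in control cells. The sums of the siRNA groups thus overlapped, and the part of feeder cells in the collagen differences was not tested.

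**Figure D5:**
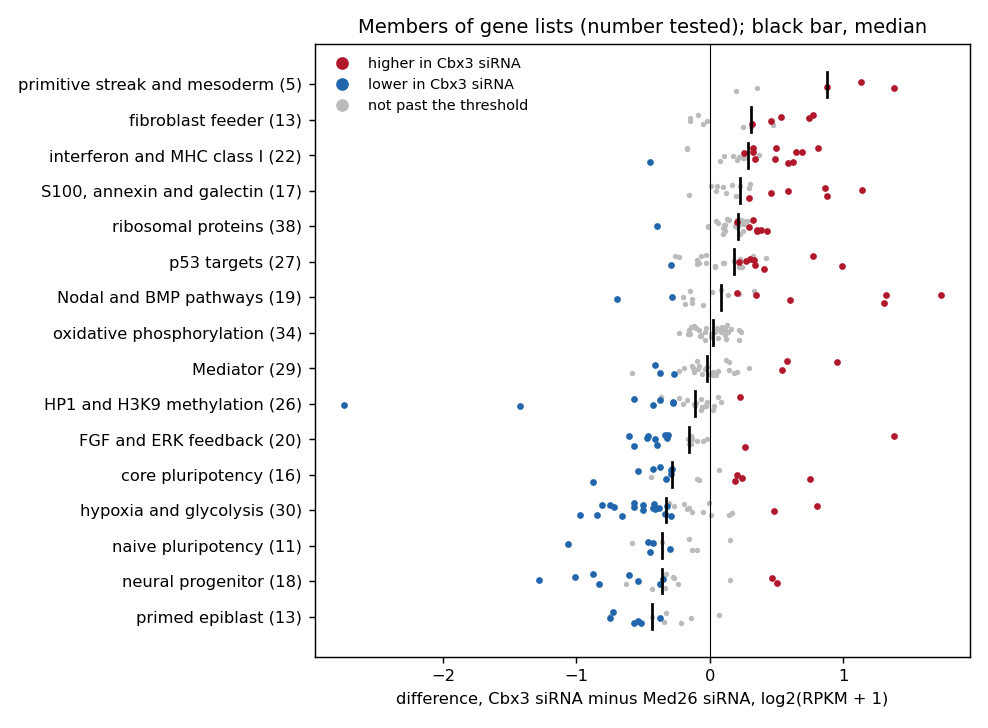
Difference between Cbx3 siRNA and Med26 siRNA (log2(RPKM + 1)) of each tested member of 16 gene lists, 1 point a gene, with the number tested in brackets and a black bar at the list's median. Red members are higher and blue members lower in Cbx3 siRNA cells. Medians run from 0.88 for the 5 streak and mesoderm genes to -0.43 for the 13 primed epiblast genes, beside 0.01 over all genes tested.

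Chromatin genes included some of the largest differences. Ehmt2, which encodes the H3K9 methyltransferase G9a, had 10.3 and 10.1 RPKM in Cbx3 siRNA cells, against 28.4 and 29.5 RPKM in Med26 siRNA cells, with 31.8 and 30.8 RPKM in control cells (difference -1.42, standard error 0.06, adjusted p = 5.43e-05). Its partner gene Ehmt1 had 14.7 and 16.2 RPKM with Cbx3 siRNA against 20.9 and 21.2 RPKM with Med26 siRNA, with 20.4 and 20.9 RPKM in control cells (difference -0.42, adjusted p = 0.00597). For both, the control cells lay near the Med26 siRNA cells. Of 26 HP1 and H3K9 methylation genes 7 were lower, Cbx3 itself included, and 1 was higher (median -0.11), and 12 were lower with the replicate block. Of 16 DNA methylation genes 4 were lower and 2 higher (median -0.06), with Dnmt3a at 19.6 and 20.3 RPKM in Cbx3 siRNA cells and 29.5 and 31.4 RPKM in Med26 siRNA cells (difference -0.58, adjusted p = 0.0021). Polycomb genes went both ways, 4 higher (8 with the replicate block) and 5 lower of 22 (median -0.02). Rnf2, the catalytic subunit of Polycomb repressive complex 1, had 16.9 and 16.5 RPKM with Cbx3 siRNA against 33.0 and 32.3 RPKM with Med26 siRNA, with 29.0 and 31.7 RPKM in control cells (difference -0.93, adjusted p = 0.00029). Cbx6, a chromobox subunit of the same complex, had 10.6 RPKM in both Cbx3 siRNA libraries and 3.76 and 3.56 RPKM in Med26 siRNA cells, with 8.93 and 8.24 RPKM in control cells. Ezh1, an H3K27 methyltransferase, had 3.86 and 4.03 RPKM with Cbx3 siRNA against 1.32 and 1.41 RPKM with Med26 siRNA, with 3.58 and 3.45 RPKM in control cells. The differences of Cbx6 and Ezh1 were 1.32 and 1.06 (adjusted p = 0.000144 and 0.000387). Rnf2 in control cells was thus near the Med26 siRNA level, and Cbx6 and Ezh1 near the Cbx3 siRNA level.

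The Mediator list, 29 genes, had 3 higher and 3 lower (median -0.02), beside 11.7% and 8.66% of all genes. With the replicate block 6 were higher and 6 lower, beside 2514 and 2027 of all 11425 genes. Beside Med26 itself, Med22 had 26.2 and 27.2 RPKM in Cbx3 siRNA cells and 17.4 and 17.8 RPKM in Med26 siRNA cells. Med11 had 25.2 and 25.6 RPKM with Cbx3 siRNA against 16.4 and 17.9 RPKM with Med26 siRNA (differences 0.58 and 0.54, adjusted p = 0.0018 and 0.00333). Both encode subunits of the Mediator head module, and control cells, at 21.98 and 23.8 RPKM for Med22 and 26.5 and 24.1 RPKM for Med11, were nearer to the Cbx3 siRNA cells. The 3 lower calls, of Med7, Ccnc and Med28 (-0.41, -0.37 and -0.27), were all lost without Cbx3 siRNA replicate 2 (-0.36, -0.36 and -0.35, adjusted p = 0.0829, 0.0573 and 0.0555). Of 30 transcription elongation genes 1 was higher and 2 lower (median -0.08), and 10 were lower with the replicate block. Hexim1, which keeps the elongation kinase P-TEFb inactive, had 10.6 and 10.7 RPKM with Cbx3 siRNA against 15.0 and 16.1 RPKM with Med26 siRNA, with 11.8 and 12.7 RPKM in control cells (difference -0.51, adjusted p = 0.00377).

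Several of the largest differences belonged to no list. The germline histone genes H2ac1 and H1f6 were near the top. H2ac1 had 62.3 and 71.3 RPKM in Cbx3 siRNA cells and 17.3 and 17.1 RPKM in Med26 siRNA cells. H1f6 had 22.5 and 21.8 RPKM with Cbx3 siRNA against 5.78 and 5.91 RPKM with Med26 siRNA (differences 1.90 and 1.76, adjusted p = 8e-05 and 5.43e-05). Control cells were at 52.1 and 59.6 RPKM for H2ac1, near the Cbx3 siRNA level, and at 11.3 and 10.1 RPKM for H1f6, in between. Histone transcripts mostly lack poly(A) tails and histone genes are near-identical in part, so shared reads could enter these values. Rassf1, a Ras association domain tumor suppressor gene, had 29.2 and 33.3 RPKM with Cbx3 siRNA, against 9.10 and 10.3 RPKM with Med26 siRNA and 9.23 and 10.7 RPKM in control cells (difference 1.59, adjusted p = 0.000203). Rce1, the protease that trims prenylated proteins such as Ras, had 24.9 and 21.6 RPKM with Cbx3 siRNA against 7.77 and 7.45 RPKM with Med26 siRNA, with 19.9 and 17.8 RPKM in control cells (difference 1.49, adjusted p = 0.000186). Rassf1 thus stood apart in the Cbx3 siRNA cells and Rce1 in the Med26 siRNA cells. The adaptor subunit gene Ap3b2, the atypical chemokine receptor gene Ackr4 and the stathmin family gene Stmn4 had differences of 1.44, 1.33 and 1.33.

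At the other end, Septin2, a cytoskeletal GTPase gene, had 39.6 and 40.8 RPKM in Cbx3 siRNA cells, against 111 and 113 RPKM in Med26 siRNA cells, with 74.8 and 77.5 RPKM in control cells (difference -1.45, standard error 0.06, adjusted p = 4.29e-05). Erlin2, of the endoplasmic reticulum membrane, had 6.97 and 6.51 RPKM with Cbx3 siRNA against 19.5 and 20.3 RPKM with Med26 siRNA, with 17.7 and 18.6 RPKM in control cells (difference -1.43, adjusted p = 8.07e-05). Dcaf12l1 had 8.51 and 7.42 RPKM with Cbx3 siRNA and 22.1 and 22.2 RPKM with Med26 siRNA. Lamp2, a lysosomal membrane protein gene, had 5.36 and 4.62 RPKM with Cbx3 siRNA against 12.5 and 11.95 RPKM with Med26 siRNA (differences -1.37 and -1.15, adjusted p = 0.000144 and 0.000305). Erlin2 in control cells was near the Med26 siRNA level, while control cells were near the Cbx3 siRNA level for Dcaf12l1 (8.17 and 8.10 RPKM) and Lamp2 (5.91 and 5.92 RPKM). The RNA polymerase III subunit gene Polr3g had 18.1 and 19.4 RPKM in Cbx3 siRNA cells and 40.8 and 41.7 RPKM in Med26 siRNA cells, with 27.0 and 31.9 RPKM in control cells (difference -1.10, adjusted p = 0.000404). The ubiquitin ligase gene Trim2, the corepressor gene Rcor1, the Rap exchange factor gene Rapgef6 and the sulfatase-modifying enzyme gene Sumf1 had differences of -1.12, -1.08, -1.11 and -1.08.

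Transcript length and 1 short sequence, picked from these data, moved with the direction of the difference. Median length in GENCODE M21, available for 98.7% of tested genes, was 2283 bases for higher genes, 3386 for lower genes and 2810 for genes that did not differ. When genes were put into 3 groups of near-equal number by length, 15.4% were higher and 6.15% lower in the shortest group, and 6.98% were higher and 12.1% lower in the longest. The letters GAGAGTT, chosen from an earlier look at these data, stood in the transcripts of 10.2% of higher, 34.6% of lower and 17.7% of other genes. Within the longest group these shares were 21.0%, 48.1% and 30.1%, and within the shortest 6.04%, 13.4% and 7.53%. Of the lower genes Cbx3, Ehmt2, Septin2, Erlin2, Dcaf12l1, Polr3g, Rapgef6, Sumf1 and Rnf2 are examples that carry the letters. Lower genes without them include Pax6, Sox1, Sox2, Nr0b1, Lamp2, Trim2, Rcor1, Dnmt3b, Dnmt3a, Pdk1, Slc2a3, Bnip3, Ccnd1, Ccnd2, Otx2 and Nes. Higher genes that carry them include T, Spp1, Ap3b2, Ezh1, Acta2, Gbp2, Psmb8, Col5a1, S100a16 and Tgm1, and those without include Lefty2, Lefty1, Wnt8a, Sp5 and Rassf1. These names are examples, and the shares above cover all genes. Since the letters were chosen from these same data, their shares are a description and cannot serve as independent support. The siRNA sequences were not used here, and no such sequence was sought for Med26 siRNA. The part of length or of this sequence in the differences was not tested.

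The ESC libraries with Cbx3 siRNA and with control siRNA share no library with the direct comparison and bear on its Cbx3 arm. Of 1239 higher genes that also passed the filter in ESCs, 67.2% had a positive difference between Cbx3 siRNA and control in ESCs, and of 953 lower genes 80.7% had a negative one. Over all 10826 genes with ESC values, 42.5% were positive and 57.5% negative. H1f6 (1.0), Lefty2 (0.88), Rassf1 (0.79) and Spp1 (0.54) were among the higher genes that were also positive in ESCs, though the ESC libraries of Rassf1 overlapped. Ehmt2 (-1.60), Erlin2 (-0.88), Septin2 (-0.82) and Polr3g (-0.58) were among the lower genes that were also negative. Another 406 higher genes were negative in ESCs, among them Enpp2 (-0.75), Impact (-0.34) and Cdkn1a (-0.21). The ESC libraries of the 2 groups overlapped for Enpp2, Impact and Cdkn1a. Likewise 184 lower genes were positive, among them Dcaf12l1 (0.38), Fgf4 (0.37) and Slc2a3 (0.29). The ESC libraries overlapped for Fgf4 and Slc2a3 and were separate for Dcaf12l1. The streak and Wnt genes T, Fgf8, Wnt8a and Sp5 were at most 1.15 RPKM in every ESC library, where the scale allows only differences near 0, and give no comparison. Of the neural progenitor genes, Pax6 (-0.31), Nes (-0.29), Otx2 (-0.25) and Sox1 (-0.15) were negative in ESCs, and Sox2 (-0.03) was near 0. Pax6 was low there too, at 0.558 and 1.19 RPKM with Cbx3 siRNA and 0.704 and 2.07 RPKM with control siRNA. The ESC libraries of the 2 groups overlapped for Pax6, Nes, Otx2 and Sox2 and were separate for Sox1. ESC replicates differed widely: Krt18 had 12.4 and 127.7 RPKM with Cbx3 siRNA and 10.05 and 54.3 RPKM with control siRNA. These ESC values are differences of 2 libraries a group, given as a description without a test.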

How the data were processed

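RNA from 10 libraries, 5 groups of 2, was sequenced after Trizol extraction and TruSeq library preparation, per the labels' protocols. The authors deposited 1 table of RPKM values per RefSeq accession. Per the submitters' processing notes, TopHat2 2.08 and mm9 were used. No source used here states the counting tool, its use of strand or what became of multiply matched reads, so isoforms, overlapping genes, antisense genes and near-identical copies can share reads. The table has 35860 rows, of which 334 had no symbol in the RefSeq gene table (GRCm38.p6), which served for names. The row with the highest mean over all libraries stood for a gene.

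log2(RPKM + 1) of the 6 NPC libraries entered a limma 3.58.1 model (R 4.3.3, intensity trend, 3 residual degrees of freedom, two-sided). A pseudocount of 1 shrinks the differences of low genes. Steps in the low values gave each library's depth, but 68.8% to 69.8% of low values lay within 0.1 of a whole read, too few to recover counts for a count test. The script was tested on simulated data. The labels do not say what a replicate number marks, but differences between replicates 1 and 2 correlated across genes at 0.449 between the siRNA groups and at 0.482 and 0.442 with control, so the numbers were taken to pair the libraries. The pairing comes from these values, and the fit without the block is the one reported.

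The members and the gene lists were chosen with earlier results of these data known, and no list was tested as a set. There are 40 lists, 25 of processes and 15 of cell types. Genes named by rule were Cbx3 and Med26, the 15 largest differences in each direction among genes past the threshold with separate libraries, up to 4 members past the threshold of each list with the lowest adjusted p, and 20 genes of a fixed set. Genes outside the rule were named after their values were seen, among them Nodal, Axin2, Etv4, Eomes, Med7 and Med28. Alternatives were other sets of libraries, a block, pseudocount, filters, scaling, gene rows, no trend and each library left out. Transcript lengths are from GENCODE M21.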

Additional observations from a re-analysis of the deposited data

Results flagged for a closer look

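Cdc6, a factor that licenses DNA replication, was singled out because its Cbx3 siRNA libraries moved in opposite directions in the 2 cell stages. Its Cbx3 siRNA minus control difference was -0.13 in NPC libraries, where both Cbx3 siRNA libraries lay below both control libraries, and 0.09 in ESC libraries, where both lay above. The difference between the stages was not tested. In the direct comparison Cdc6 had 9.54 and 9.81 RPKM in Cbx3 siRNA cells and 13.2 and 12.9 RPKM in Med26 siRNA cells, with 10.7 RPKM in both control libraries, a difference of -0.40 (limma, adjusted p = 0.00625) that did not pass without Med26 siRNA replicate 1 (-0.38, adjusted p = 0.051).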

How the results depend on the processing

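The fit of all 10 libraries left 128 genes (88 higher, 40 lower), control in between for 82.8% of them, and Cbx3 itself at -2.74 with an adjusted p of 0.0595. The replicate block gave 4541 genes (2514 higher, 2027 lower) and 58.4% with control in between. Leaving out 1 library gave 852 to 2036 genes, 495 to 1165 higher and 357 to 871 lower, with control in between for 65.8% to 74.4%. Without the filter the last share was 68.1%. With a difference of at least 1 required, a rule added after seeing the data, 68 genes remained. The 4 siRNA libraries alone, another pseudocount, a mean of at least 5 RPKM, median-ratio scaling, summed rows and no trend gave 1726 to 2307 genes. Scaling moved the share of higher calls to 53.6%, against 57.5%. Of 147 named genes past the threshold beside the targets, 106 passed without any 1 library and 34 passed with all 10. Cbx1, which did not pass, ranged from -0.07 to 0.01 when 1 library was left out and changed sign without Med26 siRNA replicate 2. The cause of these shifts was not tested. Depth limits genes of a few RPKM most, such as T, Wnt8a and Nr0b1.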

Other observations

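Imprinted genes, expressed from 1 parental copy, were higher in 3 of 19 and lower in 4 (median -0.09). Ndn had 7.58 and 8.39 RPKM in Cbx3 siRNA cells and 15.8 and 16.1 RPKM in Med26 siRNA cells, with 16.1 and 15.4 RPKM in control cells (difference -0.92, adjusted p = 0.000404). Impact had the opposite sign, with 43.9 and 44.7 RPKM with Cbx3 siRNA and 25.9 and 26.3 RPKM with Med26 siRNA, below its control level of 54.1 and 57.1 RPKM (difference 0.74, adjusted p = 0.000404). Ndn in control cells was thus near the Med26 siRNA level, and Impact was below control in both siRNA groups. Of 25 genes of the mTOR complexes 1 was higher and 3 lower (median -0.09), among them Rptor, a scaffold of mTOR complex 1, with 4.06 and 3.59 RPKM with Cbx3 siRNA against 8.91 and 6.94 RPKM with Med26 siRNA (difference -0.88, adjusted p = 0.00568). The Notch modifier gene Lfng had 5.14 and 5.203 RPKM in Cbx3 siRNA cells and 10.4 and 9.29 RPKM in Med26 siRNA cells (difference -0.81, adjusted p = 0.00182), and the Notch list had 1 higher and 2 lower of 18 (median -0.05). With the replicate block the counts were 5 higher and 7 lower for imprinted genes, 1 and 9 for mTOR complexes and 3 and 5 for Notch.

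Lrp2, the endocytic receptor megalin, was the lower gene among 5 tested endoderm genes (median 0.19, 2 higher with the replicate block), with 47.9 and 46.3 RPKM in Cbx3 siRNA cells and 84.8 and 81.2 RPKM in Med26 siRNA cells, while control cells had 38.5 and 37.8 RPKM (difference -0.80, adjusted p = 0.00029). The peptide hormone gene Trh did not differ past the threshold between the siRNAs (12.9 and 12.7 RPKM with Cbx3 siRNA, 10.4 and 11.5 RPKM with Med26 siRNA, adjusted p = 0.0939), and both groups were far below control at 50.4 and 55.5 RPKM. Trh passed with the replicate block (0.21, adjusted p = 0.0169). Enpp2, the lysophospholipase autotaxin, had 11.6 and 10.99 RPKM with Cbx3 siRNA against 7.6 and 7.15 RPKM with Med26 siRNA, with 22.2 and 24.1 RPKM in control cells (difference 0.55, adjusted p = 0.00303). Cholesterol synthesis genes had 3 higher and 5 lower of 28 (median -0.02) and immediate early genes 3 higher and 2 lower of 20 (median -0.05), or 6 higher in each list and 6 lower in each with the replicate block, with Ccn2 at 42.2 and 36.9 RPKM in Cbx3 siRNA cells and 24.5 and 21.8 RPKM in Med26 siRNA cells (difference 0.75, adjusted p = 0.00245). Among the small marker lists, blood and endothelium had 1 higher of 5 (Cd68, median 0.04), neural crest 1 higher of 6 (Ngfr, median 0.09, 2 higher with the replicate block) and germ cells 1 higher (Rhox9) and 1 lower (Mael) of 6 (median 0.02, 2 lower with the replicate block). Ngfr lost its call without either Cbx3 siRNA library or Med26 siRNA replicate 2 (adjusted p = 0.0695, 0.0868 and 0.113). Rhox9 lost it without Cbx3 siRNA replicate 2 or Med26 siRNA replicate 2 (0.137 and 0.14), and Mael without Cbx3 siRNA replicate 1 or either Med26 siRNA library (0.109 to 0.15).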
